A study of Mus musculus with 8 samples.

Results

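The interaction of IRF8 with the interferon response was measured as the response to interferon beta (IFNβ) in mouse L929 fibroblasts with ectopic IRF8 (L929IRF8) minus the response in L929 cells without it. It was computed on log2 values from all 8 arrays, for the probes whose mean intensity lay above 23.7 in at least 1 IFNβ group. This left 7877 of 16593 genes, each read from its probe with the highest mean, and 11689 of 25697 probes (45.5%). Of these probes, 11046 lay above that level in both IFNβ groups, 318 in L929 alone and 325 in L929IRF8 alone. The level of 23.7 is the background bound, the size of the lowest (negative) deposited intensity. Just outside it stood Pld2, Kcnu1 and Acot1, each with a highest group mean of 23.7, and just inside it stood Pip4k2b at 23.75 and Kif15 and Cbfa2t2 at 23.8.

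L929 is an established mouse fibroblast line. Both lines were grown in DMEM with foetal calf serum, and IFNβ was given for 4 h at 1000 U/ml. The 4 groups are L929 untreated, L929 with IFNβ, L929IRF8 untreated and L929IRF8 with IFNβ, with 2 arrays from independent replicates in each. The labels describe neither the IRF8 construct nor the clonality of the line, and they mention no empty-vector control. The Irf8 probe read between -2.3 and 7.8 on all 8 arrays, under the bound in L929IRF8 as in L929, so it does not check the labels. Fibroblast markers were present (13 of 19 above the bound, summed intensity 35319 to 39644 per array), 0 of 10 lymphoid markers were above the bound, and of 14 myeloid markers Cd74, Lyz2, Ly6c1, Cd14 and Lyz1 were above it. The summed myeloid level was 2011 to 4346 in the untreated arrays and 5034 to 8672 after IFNβ, in both lines, and Ly6c1 alone of these 5 passed the test for the IFNβ response. Arrays of one group correlated at 0.9891 to 0.9915 on the log2 scale. In a principal component analysis of the 11689 probes, the first component (65.7% of the variance) separated IFNβ from untreated arrays and the second (15.1%) separated arrays numbered 1 from arrays numbered 2.

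Type I interferons bind a receptor whose JAK kinases lead to the assembly of ISGF3, a complex that contains IRF9 and binds the interferon-stimulated response element (ISRE) upstream of antiviral genes. The GAS element is a second DNA element of interferon signalling. IRF8 belongs to the same DNA-binding family as IRF9, is normally found in myeloid cells and B cells, and can activate or repress ISRE-bearing genes depending on its partners, among them other IRFs and the ETS factor PU.1, with which it binds a composite ETS-IRF element. Fibroblasts do not normally express it, so the comparison asks how the interferon response of such a cell differs when IRF8 is added.

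Promoter sequence is shown first for the genes that carry the pattern described below and have a match to the ISRE core, which is GAAA, 2 bases of any kind and GAAA again, on either strand. The windows hold 100 bases around that match and come from RefSeq promoters (GRCm38.p6, 250 bases before to 50 after each gene start), printed 5′ to 3′ on the gene's strand. Capitals mark the ISRE core or, where 2 cores overlap, both. Gbp2, Gbp2b, Trim21 and Tgtp1 had weaker responses in L929IRF8, Ifi205, Ifi214 and Clec2d stronger ones, and Oas1g, by its brightest probe, one that differed by less than 1.5-fold. BC147527, also strengthened, has a match too, and its window is not printed.
Gbp2, chr3:142620559-142620658, plus strand: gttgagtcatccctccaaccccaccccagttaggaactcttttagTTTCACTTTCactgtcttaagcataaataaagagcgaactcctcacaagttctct
Gbp2b, chr3:142594665-142594764, plus strand: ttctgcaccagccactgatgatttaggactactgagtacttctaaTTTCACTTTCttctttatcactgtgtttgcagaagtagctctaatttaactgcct
Trim21, chr7:102565433-102565532, minus strand: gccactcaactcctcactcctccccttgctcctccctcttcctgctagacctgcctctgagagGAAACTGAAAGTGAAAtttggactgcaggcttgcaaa
Tgtp1, chr11:48992269-48992368, minus strand: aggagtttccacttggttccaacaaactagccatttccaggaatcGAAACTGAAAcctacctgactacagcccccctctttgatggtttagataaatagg
Ifi205, chr1:174031835-174031934, minus strand: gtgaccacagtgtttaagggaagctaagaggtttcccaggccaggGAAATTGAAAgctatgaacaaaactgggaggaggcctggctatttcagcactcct
Ifi214, chr1:173535982-173536081, minus strand: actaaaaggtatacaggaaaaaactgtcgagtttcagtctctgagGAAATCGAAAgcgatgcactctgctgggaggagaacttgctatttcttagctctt
Clec2d, chr6:129180381-129180480, plus strand: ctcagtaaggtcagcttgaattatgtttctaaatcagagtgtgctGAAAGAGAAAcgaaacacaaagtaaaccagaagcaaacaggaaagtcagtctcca
Oas1g, chr5:120887577-120887676, minus strand: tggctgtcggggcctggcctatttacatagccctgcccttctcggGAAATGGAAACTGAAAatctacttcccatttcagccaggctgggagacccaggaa
The ISRE core was found in promoters of all 3 classes of response. Promoters were found for 154 of the 192 IFNβ-induced genes defined below. A gene counted once, with a match in any of its promoters. The ISRE core was matched in 50 of the 154 (32.5%), against 1079 of all 27025 genes with promoters (3.99%) and 266 of the 6457 measured ones (4.12%). It was matched in 12 of 32 genes with a weakened response (37.5%), 34 of 113 with a kept response (30.1%) and 4 of 9 with a strengthened response (44.4%). The GAS core is TTC, 3 free bases and GAA. It was matched in 9.55% of all genes with promoters, 21.9% of the weakened class, 17.7% of the kept class and 11.1% of the strengthened class. The ETS-IRF letters are GGAA, 2 free bases and GAAA. They were matched in 3.16% of all genes with promoters, 3 of the 32 weakened (9.38%), 17 of the 113 kept (15.0%) and 0 of the 9 strengthened. Both strands were searched for each motif, and matches of different motifs may overlap. The median interaction was -0.32 for the 50 induced genes with an ISRE core, 38 of them negative, and -0.15 for the 104 without one, 74 of them negative, with no test made. Those with an ISRE core also responded more, with medians of 3.26 in L929 and 2.98 in L929IRF8. Without one the medians were 2.30 and 1.91. The interaction is not scaled by the size of the response, so these medians do not show a greater relative weakening. A match describes letters in a window and is not a binding site.

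To choose IFNβ-induced genes without favouring either line, the mean response of both lines was used. In this balanced design its estimate is statistically independent of the estimate of the interaction. The p-values of both use the same estimate of the spread and are not independent. A linear model over all probes (limma, Benjamini-Hochberg adjusted p under 0.05) called 383 of 25697 probes higher in the mean response (1.49%) and 185 lower (0.72%). Among the 7877 measured genes, 192 (2.44%) were called higher and had a mean rise of at least 2-fold. These are the induced genes below. Tested for each line within the same model, 256 probes (0.996%) rose in L929 and 222 (0.864%) rose in L929IRF8, which does not show that the responses differ.

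The test of the difference itself called 1 probe, for Oas1b, lower in L929IRF8 (1 of 25697 probes, 0.00389%; 1 of 11689 measured probes, 0.00856%), and 0 probes higher by limma. At an unadjusted p under 0.05 the interaction stood at 1226 of all probes and 502 of the measured probes. With each gene read from its brightest probe, the next smallest p-values belonged to Abcd3, Bnip5, Mst1, Marcks and Rtn1 among negative interactions and to Lrrn3, Tnrc18, Col3a1, Frs3 and Foxc2 among positive ones, and none of these 10 passed (limma adjusted p = 0.305 to 0.507). Since no other gene passed, single genes other than Oas1b are given below as measurements with their SE and not as changes. The smallest two-sided p that exact permutation of 2 and 2 arrays can reach is 0.333, for Oas1b as for any other gene. Adjusted p-values are limma's after Benjamini-Hochberg adjustment over all 25697 probes throughout.

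Oas1b belongs to the 2′-5′ oligoadenylate synthetase family, whose full-length form restricts flaviviruses in mice. Its intensity after IFNβ was 482.9 and 499.9 in L929 and 214.8 and 217.8 in L929IRF8. Untreated, it read -10.5 and -3.2 in L929, and -8.1 and -7.0 with IRF8, so all 4 arrays lie under the bound and the lines differed only in the height reached after IFNβ. The response was 4.99 in L929 and 3.86 in L929IRF8 on the log2 scale, an interaction of -1.13 ± 0.04 (SE, limma adjusted p = 0.0363). The difference after IFNβ alone had the same size, -1.13, and was the 1 probe called in that comparison (limma adjusted p = 0.00719; 0.00389% of probes). Its second probe gave an interaction of -1.58. The SE of 0.04 is far below the median SE of 0.30 over the induced genes. All 4 untreated values were negative and were set to 0, so they are identical on the log2 scale. The untreated groups thus added no spread to this SE, and the call depends on it. The call was lost in the fit with a replicate block (adjusted p = 0.291), with an intensity trend (0.241), with the measured probes alone (1) and on leaving out L929IRF8 untreated replicate 1 (0.0561). The alternatives together gave adjusted p-values from 0.00462 to 1.

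Over the 192 induced genes the response was mostly a little smaller in L929IRF8. The interaction was negative in 142 of them (74.0%), with a median of -0.22, against 51.7% negative and a median of -0.01 over all 7877 measured genes. In bulk RNA, fewer responding cells and less RNA per cell cannot be told apart. The median was -0.20 from the arrays numbered 1 and -0.23 from those numbered 2. At the median gene the log2 response in L929IRF8 was 93.2% of that in L929. The median log2 level of the induced genes was 5.59 and 5.56 in untreated L929, 5.70 and 5.68 in untreated L929IRF8, 9.46 and 9.08 in L929 with IFNβ and 9.11 and 8.93 in L929IRF8 with IFNβ. After IFNβ these medians overlap between the lines, since L929IRF8 replicate 1 lies above L929 replicate 2, so the size of the shift depends on which arrays are set side by side. Without L929IRF8 IFNβ replicate 2 the median interaction was -0.09, without L929 IFNβ replicate 1 it was -0.11, and without L929IRF8 IFNβ replicate 1 it was -0.37.

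**Figure D1:**
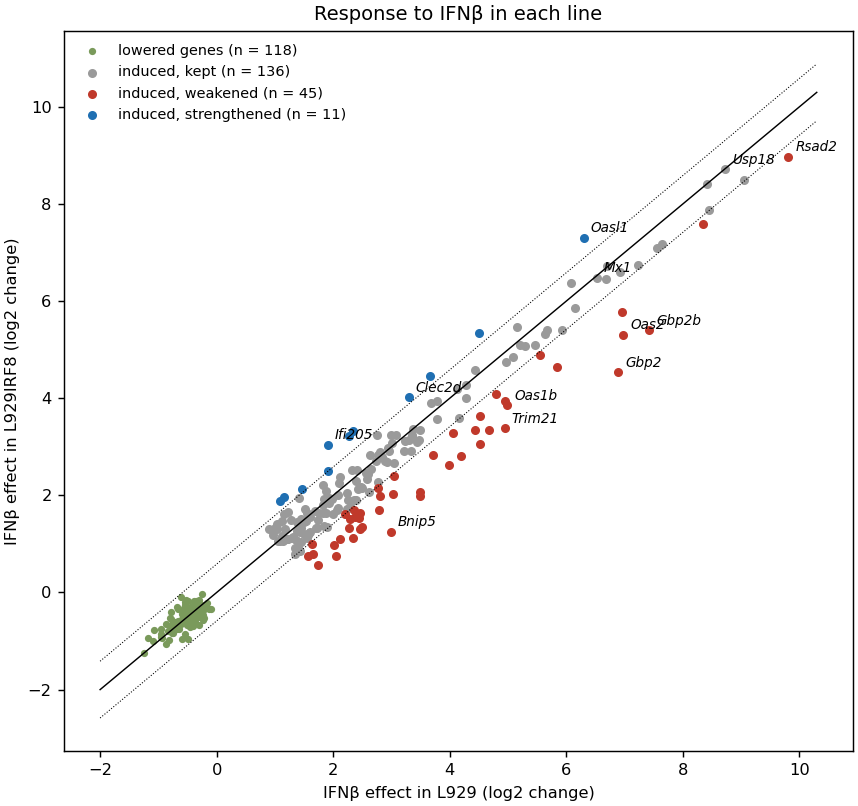
IFNβ effect of each induced (n = 192) or lowered (n = 118) gene in L929 (x axis, log2 change) and in L929IRF8 (y axis, log2 change), coloured by class, with the line of equal response solid and a 1.5-fold difference dotted. Most induced genes lie near the line, the 45 weakened genes lie below it at every size of response, and Gbp2 and Gbp2b lie farthest below.

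Each induced gene was put in a class by size, which is a description and not a test. A response was called weakened where the interaction was at least 1.5-fold down (0.585 on the log2 scale) and negative under both replicate numbers, strengthened where it was the mirror image, and kept where it was under 1.5-fold. By this rule 45 genes were weakened, 136 kept and 11 strengthened. The 136 are 70.8% of the induced genes, against 94.7% of all measured genes under 1.5-fold. The 45 are 23.4% of the induced genes, against 2.91% of all measured genes and 2.42% of the 7516 measured genes whose mean response was not called. The 11 are 5.73%, against 2.13% of all measured genes and 2.08% of those not called. The median SE of the interaction was 0.30 for induced genes and 0.25 for all measured genes. Closest to the limit stood Stat2 (-0.57, kept), Rbm43 (-0.60, weakened) and H2-T24 (0.59, strengthened). In 57 induced genes (6.78% of measured genes do so) every pairing of arrays gave a smaller effect in L929IRF8, and in 13 (4.76% of measured genes) every pairing gave a larger one. The median interaction of the weakened genes was -1.02, and their log2 response in L929IRF8 was at the median 66.9% of that in L929. The kept genes had a median of -0.12 and retained 95.7%, and the strengthened genes had 0.81 and reached 142%.

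Weakening was seen at every size of response. Of the 79 genes with a mean rise of 2- to 4-fold, 15 were weakened and 3 strengthened, with a median interaction of -0.17. The 70 genes with a rise of 4- to 16-fold held 16 weakened and 5 strengthened (median -0.18), and the 43 genes above 16-fold held 14 weakened and 3 strengthened (median -0.33). Where untreated levels were above the bound in both lines, 10 of 54, 8 of 38 and 1 of 9 genes were weakened, in the same order. Most weakened genes above 16-fold thus had an untreated level under the bound in 1 or both lines. By brightness after IFNβ, the median was -0.14 for the 62 genes under 200 intensity units, -0.31 for the 77 from 200 to 2000 and -0.11 for the 53 above 2000. Differences between these medians were not tested.

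**Figure D2:**
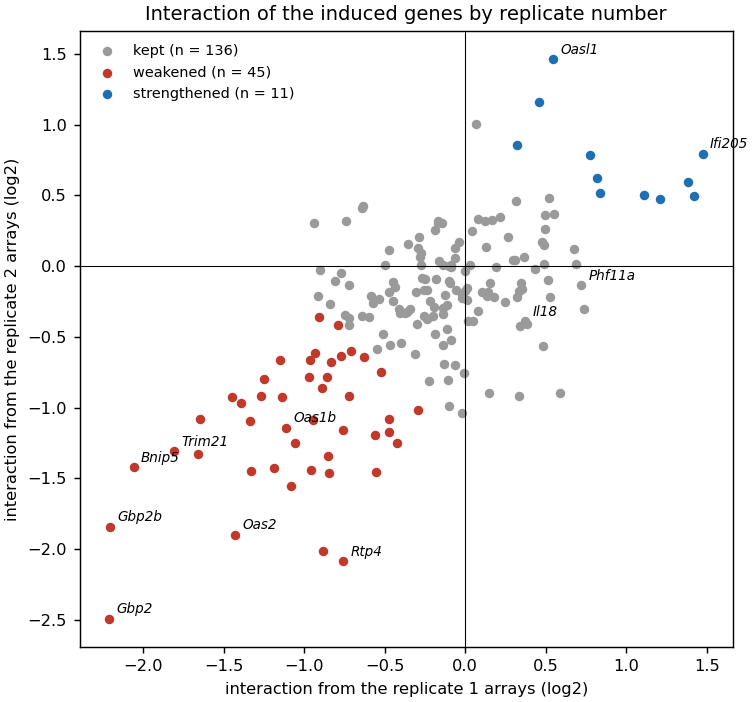
Interaction of each of the 192 induced genes (log2) computed from the 4 arrays numbered 1 (x axis) and from the 4 arrays numbered 2 (y axis), coloured by class. Weakened and strengthened genes lie in the lower left and upper right by the rule of the classes, while many kept genes have opposite signs under the 2 numbers.

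An interaction is the line difference after IFNβ minus the line difference in untreated cells, so a smaller response can come from a lower height after IFNβ, a higher level before it, or both. Over the 192 induced genes the median line difference was 0.02 in untreated cells and -0.20 after IFNβ. In 101 of them untreated levels were measured above the bound in both lines, and these held 19 weakened, 79 kept and 3 strengthened genes (median -0.17). In 78 the untreated level lay under the bound in both lines (23 weakened, 49 kept, 6 strengthened, median -0.29), and in 13 it lay under the bound in 1 line (3, 8 and 2). For the 78 the untreated part rests on background signals, but it still enters the interaction. Its median was 0.06 over the 23 weakened genes and -0.37 over the 6 strengthened ones. Of the 19 weakened genes with measured untreated levels, 17 had their larger part after IFNβ. In the other 2, Il7 and Lgals3bp, the larger part was a higher untreated level in L929IRF8.

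**Figure D3:**
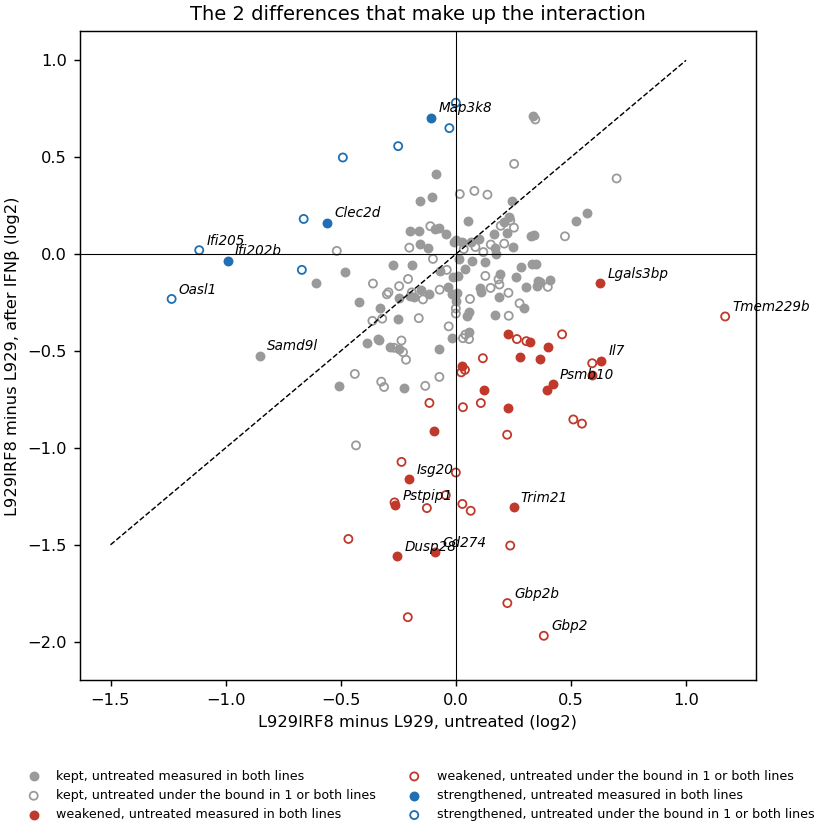
Line difference (L929IRF8 minus L929, log2) of each of the 192 induced genes in untreated cells (x axis) and after IFNβ (y axis), filled where untreated levels were measured in both lines, with the dashed line marking an interaction of 0. Gbp2, Oas2 and Gbp2b lie lowest, with after-IFNβ differences of -1.97, -1.87 and -1.80, while Ifi202b and Oasl1 lie far left, with untreated differences of -0.99 and -1.23.

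Trim21, a cytosolic antibody receptor and ubiquitin ligase, shows the first kind. It read 27.0 and 26.9 in untreated L929, 47.4 and 25.2 in untreated L929IRF8, 1318 and 1289 in L929 with IFNβ and 546.2 and 489.7 in L929IRF8 with IFNβ. The untreated arrays of the lines overlap, and the IFNβ arrays do not. Its interaction was -1.56 ± 0.30 (limma adjusted p = 0.507), made up of 0.25 before and -1.31 after IFNβ, and its second probe gave -1.24. Dusp28, of the dual-specificity phosphatase family, read 37.4 and 28.4, then 203.9 and 168.9 in L929, and 27.5 and 22.3, then 62.8 and 43.4 in L929IRF8. Its response was 2.05 in L929 and 0.75 in L929IRF8, an interaction of -1.30 ± 0.27. Pstpip1, a cytoskeletal adaptor, was likewise lower in L929IRF8 both before (-0.26) and after IFNβ (-1.30), with an interaction of -1.03 ± 0.19. Cd274, which encodes the T-cell inhibitory ligand PD-L1, read 1548 and 1392 after IFNβ in L929 and 752.2 and 324.3 in L929IRF8. Its interaction of -1.45 ± 0.68 rests unevenly on the 2 L929IRF8 arrays, and was -0.86 without the lower of them.

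Il7, a cytokine that sustains lymphocytes, shows the second kind. It read 44.9 and 66.3 in untreated L929 and 85.4 and 102.5 in untreated L929IRF8, then 223.5 and 219.1 in L929 and 135.9 and 157.1 in L929IRF8 after IFNβ. The lines do not overlap at either time and stand in opposite order, so the interaction of -1.18 ± 0.24 is made up of 0.63 before and -0.55 after IFNβ. Lgals3bp, a secreted galectin-binding protein, read 1251 and 1578 in untreated L929 and 2118 and 2242 in untreated L929IRF8. After IFNβ it read 7829 and 6105 in L929 against 6893 and 5636 in L929IRF8, where the lines overlap. Its interaction was -0.78 ± 0.27, of which 0.63 was already present before treatment. Psmb10, a catalytic immunoproteasome subunit, read 530.7 and 485.2 in untreated L929 and 779.4 and 602.1 in untreated L929IRF8, and after IFNβ 4103 and 3136 in L929 against 2473 and 2045 in L929IRF8. Its interaction of -1.09 ± 0.28 held both parts, 0.42 before and -0.67 after, and its second probe gave -1.23.

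The guanylate-binding proteins, interferon-induced GTPases that attack the vacuoles of intracellular pathogens, held the lowest log2 interactions. All 7 of their measured members were induced, 4 of them weakened and 3 kept, with a median interaction of -1.18. The share of weakened genes among all 192 induced genes was 23.4% and their median -0.22. Relative to their large responses (median 5.84 in L929) the weakening was less marked. The log2 response in L929IRF8 was at the median 83.0% of that in L929, against 93.2% over all induced genes. It was 82.6% in the MHC class I list. Gbp2 reached 65.9% and Gbp2b 72.7%, while Dusp28 reached 36.3% and Bnip5 41.8%. Gbp2 read 3269 and 2492 after IFNβ in L929 and 784.9 and 654.7 in L929IRF8, with untreated values of 20.8 and -3.4 in L929 against 25.5 and 8.1 in L929IRF8. The IFNβ arrays of the lines are far apart, and the untreated arrays overlap near the bound. Its interaction was -2.35 ± 0.70 (limma adjusted p = 0.868), the lowest of the 192 induced genes, and its dimmer second probe gave -1.86 ± 0.39. Gbp2b read 3314 and 2486 after IFNβ in L929 and 968.8 and 680.9 in L929IRF8, an interaction of -2.02 ± 0.41. Gbp7 stood at -1.20 ± 0.41 and Gbp3 at -1.18 ± 0.46, and their other probes gave -1.16 and -1.06. The 4 weakened genes are annotated to chromosome 3, as is Gbp5, which was kept at -0.28, while the kept Gbp10 (0.08) and Gbp11 (-0.10) are annotated to chromosome 5. These genes are close paralogs, and whether a probe also binds a neighbour's transcript was not tested.

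The immunity-related GTPases, which act on the same vacuoles, had the next lowest median log2 interaction among the lists. Of 9 measured members 6 were induced, and all 6 had a negative interaction, 3 weakened and 3 kept, with a median of -0.64. Their responses were large, with a median of 6.42 in L929. Relative to them, L929IRF8 reached 91.1% at the median gene, close to the 93.2% over all induced genes. The PARP list stood lower, at 80.5%. Tgtp1 read 410.9 and 184.7 after IFNβ in L929 and 153.5 and 64.6 in L929IRF8, with all untreated arrays under the bound, an interaction of -1.39 ± 0.71. Gm4841 stood at -0.88 ± 0.18 and Igtp at -0.76 ± 0.66. Irgm2 (-0.46), Ifi47 (-0.32) and the giant GTPase Gvin1 (-0.52) were kept.

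**Figure D4:**
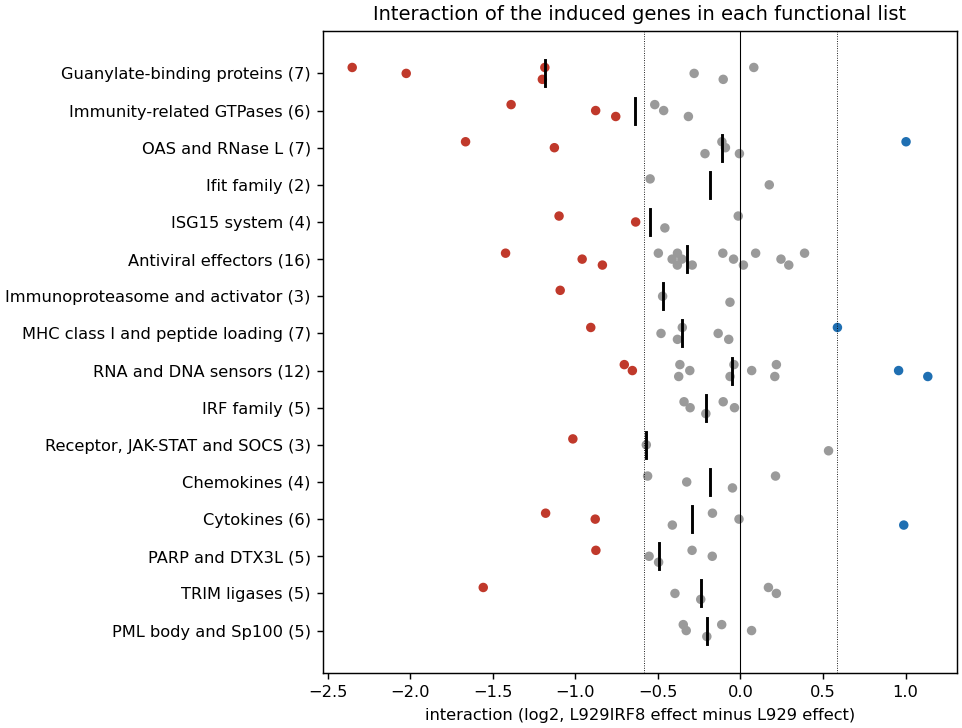
Interaction (log2) of each induced gene in 16 functional lists, number of genes in brackets, with the median as a vertical bar, weakened genes in red, kept in grey and strengthened in blue, and dotted lines at a 1.5-fold difference. Guanylate-binding proteins lie farthest to the left with a median of -1.18, while RNA and DNA sensors centre near 0 with a median of -0.05 and hold genes on both sides.

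The oligoadenylate synthetases, which make the second messenger that activates RNase L, fell into all 3 classes. Of 8 measured members 7 were induced, with 2 weakened, 4 kept and 1 strengthened, and a median of -0.11. Besides Oas1b, Oas2 was weakened. It read 2659 and 2177 after IFNβ in L929 and 1058 and 390.8 in L929IRF8, an interaction of -1.66 ± 0.71 that moved from -0.96 to -2.37 as single arrays were left out. Oas1g read 5049 and 4573 in L929 against 3913 and 3174 in L929IRF8 after IFNβ. Its responses of 5.21 and 5.10 differed by -0.11 ± 0.22, since it was also lower in untreated L929IRF8 (95.9 and 79.6 against 126.2 and 103.4). Oas1a (-0.21), Oas3 (-0.09) and Oasl2 (-0.01) were kept. Their class rests on the brightest probe: another probe of Oasl2 gave -0.78 ± 0.50, and the 2 other probes of Oas1g gave -0.80 ± 0.13 and -0.04 ± 0.36.

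Oasl1, an OAS-like protein without synthetase activity, was the strengthened member by its brightest probe, but its other probes say the opposite. The brightest probe read 20.6 and 35.8 in untreated L929, 5.4 and -2.9 in untreated L929IRF8, 3487 and 3344 in L929 with IFNβ and 2970 and 2844 in L929IRF8 with IFNβ. Its interaction of 1.00 ± 0.31 thus came from untreated values about the bound, while its IFNβ arrays were lower in L929IRF8. With every value below the bound set to 23.7, the interaction was 0.06. The other 2 probes, with responses of 6.78 and 5.14 in L929, gave -0.70 and -0.73.

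In the ISG15 system, which conjugates the ubiquitin-like ISG15 to proteins, all 4 measured members were induced. Uba7, the activating enzyme, was weakened at -1.10 ± 0.62 and Ube2l6, the conjugating enzyme, at -0.63 ± 0.26. Isg15 itself stood at -0.46 ± 0.26 and was kept. Usp18, which removes ISG15 and dampens receptor signalling, read 16621 and 15735 in L929 against 14354 and 11476 in L929IRF8 after IFNβ, an interaction of -0.01 ± 0.30.

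Among other antiviral effectors, 16 of 21 measured genes were induced, with 3 weakened, 13 kept and 0 strengthened (median -0.32). Rtp4 read 148.0 and 179.3 after IFNβ in L929 and 94.9 and 69.9 in L929IRF8 (-1.42 ± 0.39). Isg20, an exonuclease, read 357.8 and 321.9 in L929 against 150.7 and 135.7 in L929IRF8 (-0.96 ± 0.18). Rsad2, which makes a chain-terminating nucleotide, had the largest response of the induced genes in L929, 9.81, and an interaction of -0.84 ± 0.46. The dynamin-like GTPases Mx1 (-0.04 ± 0.50) and Mx2 (0.02 ± 0.25) and the kinase Eif2ak2 (-0.11 ± 0.12) were kept. For Mx2 the value was -0.35 with untreated levels raised to the bound, since its 4 untreated arrays all lie under it. Of the Ifit family, which binds viral RNA ends, Ifit3 stood at -0.55 and Ifit2 at 0.17, both kept. The class of Ifit3 rests on its brightest probe, since its other probes gave -0.87 ± 0.27 and -0.43 ± 0.51. Another probe of Ifit2 gave 0.02 ± 0.06.

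In the MHC class I group, which presents peptides from inside the cell, 7 of 15 measured genes were induced, with 1 weakened, 5 kept and 1 strengthened (median -0.35). The peptide editor Tapbpl stood at -0.91 ± 0.51, and the peptide transporters Tap1 (-0.13) and Tap2 (-0.38) and the transactivator Nlrc5 (-0.48) were kept. H2-M3 was kept at -0.35 ± 0.07, being higher in L929IRF8 before treatment (385.6 and 407.2 against 266.4 and 275.7) and by less after it. Of the immunoproteasome, Psmb10 was weakened, while Psmb9 (-0.06) and the activator subunit Psme1 (-0.47) were kept.

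RNA and DNA sensors held weakened and strengthened genes alike. Of 17 measured members 12 were induced, with 2 weakened, 8 kept and 2 strengthened (median -0.05). Tlr3, the endosomal receptor of double-stranded RNA, stood at -0.70 ± 0.41 and Dhx58, which encodes LGP2, at -0.65 ± 0.29. The helicases Ddx58 (-0.37) and Ifih1 (-0.31), which encode RIG-I and MDA5, were kept. Both strengthened members, Ifi205 and Ifi202b, belong to the HIN-200 family of DNA-binding proteins.

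A group of 3 HIN-200 genes, Ifi202b, Ifi205 and Ifi214, all annotated to chromosome 1, were among the 11 strengthened genes, and each read lower in untreated L929IRF8, with line differences after IFNβ between -0.03 and 0.18. Ifi202b read 2020 and 1842 in untreated L929 and 768.1 and 1204 in untreated L929IRF8, and after IFNβ 9800 and 8990 in L929 against 10091 and 8336 in L929IRF8. The untreated arrays of the lines do not overlap and the IFNβ arrays do. Its response was 2.27 in L929 and 3.23 in L929IRF8, an interaction of 0.96 ± 0.33 (limma adjusted p = 0.975), and its second probe gave 0.54. Ifi205 read 29.1 and 36.9 in untreated L929, -3.3 and 15.8 in untreated L929IRF8, 174.9 and 159.5 in L929 with IFNβ and 172.4 and 166.9 in L929IRF8 with IFNβ (1.13 ± 0.47). With low values raised to the bound its interaction was 0.49, and that of Ifi214 was 0.19 instead of 0.84 ± 0.45, so their size depends on untreated signals near background. A further member of the family on chromosome 1, Ifi204, was kept at 0.21 ± 0.32.

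Clec2d, whose product is a ligand of an inhibitory receptor of natural killer cells, was the strengthened gene with the smallest error. It read 485.4 and 408.9 in untreated L929 and 281.7 and 313.8 in untreated L929IRF8, and 4718 and 4324 after IFNβ in L929 against 4941 and 5169 in L929IRF8. The lines do not overlap at either time and stand in opposite order. Its interaction was 0.72 ± 0.15, of which -0.56 was the untreated difference and 0.16 the difference after IFNβ. Map3k8, the kinase TPL2 upstream of ERK, was the 1 strengthened gene with measured untreated levels whose larger part lay after IFNβ. It read 151.2 and 174.6 in L929 against 277.7 and 272.2 in L929IRF8 after IFNβ, with overlapping untreated arrays, an interaction of 0.81 ± 0.36. Il6, an inflammatory cytokine, read 122.2 and 115.8 after IFNβ in L929 and 179.9 and 169.6 in L929IRF8, with all untreated arrays under the bound, an interaction of 0.99 ± 0.29 that was 0.55 with those arrays at the bound. BC147527 (0.78 ± 0.38), Kif5c, a kinesin heavy chain (0.81 ± 0.28), and Spink2, a protease inhibitor (0.68 ± 0.49), also had higher means after IFNβ in L929IRF8, with overlapping arrays for Spink2. H2-T24 (0.59 ± 0.30) had untreated values under the bound and overlapping IFNβ arrays.

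**Figure D5:**
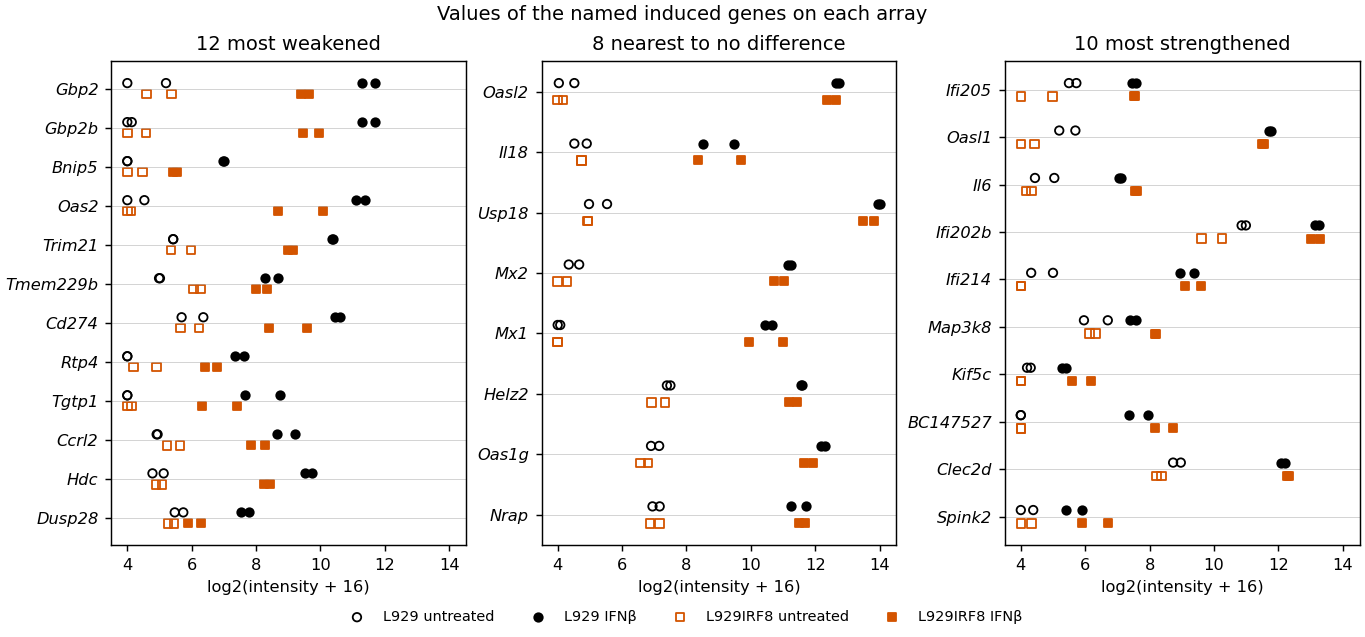
Log2(intensity + 16) of the named induced genes on each of the 8 arrays, circles for L929 and squares for L929IRF8, open for untreated and filled for IFNβ, with 4 as the lowest value the scale can show. In the 12 most weakened genes other than Tmem229b, whose filled symbols overlap, the filled squares lie left of the filled circles, while Ifi202b and Clec2d show open squares left of open circles and filled symbols that nearly meet.

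Of the 8 induced genes in the lists of the IRF family and of receptor, JAK-STAT and SOCS genes, 7 were kept. All 5 induced members of the IRF family were kept with negative values, Irf7 at -0.21, Irf9 at -0.30, Irf5 at -0.34, Irf2 at -0.10 and Irf1 at -0.04. Irf1 read 7172 and 6988 in L929 against 6565 and 5884 in L929IRF8 after IFNβ, and Irf9, the DNA-binding subunit of ISGF3, read 1186 and 1436 against 1111 and 1164. Of the receptor, JAK-STAT and SOCS genes, 3 of 19 measured members were induced. Batf2, an AP-1 family factor, was weakened at -1.02 ± 0.30 (1359 and 1518 in L929 against 587.5 and 575.4 in L929IRF8 after IFNβ). Stat2 was kept at -0.57 ± 0.37 and Socs1, the feedback inhibitor of JAK kinases, at 0.53 ± 0.35.

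Secreted factors were divided. The 4 induced chemokines of 13 measured were kept, with Cxcl10 at -0.56 ± 1.27 and Cxcl9 at -0.33 ± 1.30, where the 2 L929 arrays themselves differed widely (12033 and 4250 for Cxcl10). Of 9 measured cytokine genes 6 were induced, with 2 weakened (Il7 and Il15), 3 kept and 1 strengthened (Il6). Il15, which sustains natural killer and memory T cells, read 99.7 and 92.4 untreated and 1401 and 1502 after IFNβ in L929, and 136.6 and 127.0, then 936.6 and 1145 in L929IRF8. The lines do not overlap at either time, its interaction was -0.88 ± 0.15, and its other probes were negative too, the nearer to 0 at -0.74. Il18 was kept at -0.01 ± 0.78, a value too loose to show a difference of either sign.

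In the smaller groups, 1 of 5 induced PARP-family genes was weakened (Parp9, -0.88 ± 0.19) and 4 were kept, Parp14 at -0.50 ± 0.32. Of 5 induced TRIM ligases Trim21 was weakened and 4 were kept. All 5 induced genes of the PML body group, the 2 Schlafen genes and the 3 induced cell death genes were kept. Of 14 measured genes from a list of IRF8 targets known in myeloid cells, 2 were induced, Il18 and Pml (0.07 ± 0.15), and both were kept. Outside the lists, Hdc, which makes histamine, read 840.9 and 714.7 after IFNβ in L929 and 328.4 and 288.4 in L929IRF8, an interaction of -1.32 ± 0.23. Bnip5 read 112.9 and 109.0 in L929 against 26.9 and 30.7 in L929IRF8 after IFNβ, close to the bound in the second line, with an interaction of -1.74 ± 0.23 (limma adjusted p = 0.334). Ccrl2, a chemerin-binding receptor, stood at -1.36 ± 0.38 and Tmem229b at -1.49 ± 0.26. Tmem229b was the weakened gene with the largest untreated difference, 1.17 (15.7 and 16.3 in L929 against 61.6 and 50.8), but its second probe, dimmer, gave 0.07.

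For genes with several probes the classes can be read a second time. Of 17 other probes for 12 weakened genes, 14 were also negative, with a median of -0.74, and the exceptions belong to Mov10 and Tmem229b. Of 47 other probes for 30 kept genes, 38 had the sign of the main probe. Of 4 other probes for 3 strengthened genes, 2 were positive and the 2 negative ones belong to Oasl1. Probes of one gene share the same RNA samples, so they repeat the measurement and not the experiment.

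Genes lowered by IFNβ showed no common direction of the difference between the lines. The mean response was called lower in 118 of the 7877 measured genes (1.5%), all 118 were kept by the 1.5-fold rule, and 54 had a negative and 64 a positive interaction, with a median of 0.02. Their falls were small, with a median of -0.47 in L929 and -0.46 in L929IRF8, so a difference of 1.5-fold would be about as large as the falls themselves. None of the 118 passed limma's adjusted threshold for the interaction, and 18.6% of them had an unadjusted p under 0.05, against 20.3% of the induced and 4.18% of all measured genes. Calling genes by the mean response favours a small spread, and the interaction p uses the same spread. The median SE of the interaction was 0.09 for the lowered genes and 0.25 for all measured genes. These shares alone therefore do not show more differences between the lines. The log2 response in L929IRF8 was 16.7% of that in L929 for Lrrn3 (-0.10 against -0.61), 44.4% for Trim33 and 161% for Aktip. Osgin1, an oxidative stress-induced growth inhibitor, read 212.2 and 178.4 in L929 and 59.5 and 89.4 after IFNβ, and 245.7 and 186.9, then 75.7 and 88.0 in L929IRF8, a change of -1.24 in each line. Ppargc1b, a coactivator of mitochondrial genes, had -1.18 in L929 and -0.93 in L929IRF8 (interaction 0.25 ± 0.25). Phtf2 (0.09), Ahdc1 (-0.20) and Chst1, a sulfotransferase (0.01), had interactions close to 0. The widest values were -0.47 for Pdgfra, a growth factor receptor of fibroblasts, and 0.51 ± 0.06 for Lrrn3, which read 34.8 and 31.8 after IFNβ in L929 and 46.9 and 48.7 in L929IRF8 (limma adjusted p = 0.305).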

How the data were processed

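The authors deposited linear intensities of 25697 Illumina bead-array probes for 8 arrays, made with tools not given in the sources used here. Judged by the values, the deposited intensities were background-subtracted (28.1% to 28.3% are negative) and quantile normalized (the largest spread among sorted arrays is 1.7 units), which would hide any shift common to most genes. Every column of values was mapped to a sample. The series describes independent replicates without saying whether they are separate cultures, so p-values measure only the spread between these arrays, whose number limits precision.

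Values under 0 were set to 0, 16 was added and log2 taken, which understates changes of dim genes. A model with 1 coefficient for each of 4 groups was fitted to all probes with limma 3.58.1 in R 4.3.3 (4 residual degrees of freedom, 0.684 added by eBayes). It was tested on simulated data. Errors are SEs from limma. Probes were named from the platform annotation (23978 with 1 symbol, 0 with several, 1719 with none; 23962 matched by Entrez ID, 0 symbols updated), with the highest mean log2 value choosing among probes of the 4777 genes that have several.

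Genes named in full are any called in the interaction and the 5 smallest p in a direction with fewer than 3 calls. Among induced genes with one sign under both replicate numbers, the 12 most negative and 10 most positive interactions were added. The 8 interactions nearest to 0 among the largest mean responses and the 5 largest falls complete them. Others come from the 25 lists, or were chosen after their values were seen (Il7, Lgals3bp, Pstpip1). Members and lists were chosen with earlier results of these data known. Alternatives changed the pseudocount, the treatment of values under the bound, centring, replicate block, intensity trend, probes fitted, choice of induced genes, size limits and the arrays included.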

Additional observations from a re-analysis of the deposited data

Results flagged for a closer look

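The effects of IFNβ in the 2 lines differed by the test of the difference for Oas1b (limma adjusted p = 0.0363).

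Among the 10 genes named for the smallest interaction p-values after Oas1b, 7 had both arrays of L929 moving one way with IFNβ and both arrays of L929IRF8 the other. None passed the test of the difference (limma adjusted p = 0.308 to 0.39 after Benjamini-Hochberg adjustment), so the opposite directions are not shown to differ beyond the spread of the arrays. The interaction was -0.379 ± 0.05 (SE) for Abcd3, a peroxisomal transporter, whose intensity was 700.5 and 725.7 untreated and 826.7 and 828.1 with IFNβ in L929, against 830.4 and 839.3, then 726.0 and 756.2 in L929IRF8. For Marcks, a substrate of protein kinase C, it was -0.947, and the lines differed by 0.81 in untreated cells and by -0.14 after IFNβ. It was -0.993 for Mst1 and -0.494 for Rtn1. In the other direction, Col3a1, a fibrillar collagen, stood at 1.04 ± 0.15, with 457.3 and 477.8 untreated and 380.4 and 387.0 with IFNβ in L929, against 241.5 and 284.9, then 496.0 and 424.1 in L929IRF8. The values of Tnrc18 (0.751) and Frs3 (0.715), like that of Mst1, rest on intensities close to the background bound.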

How the results depend on the processing

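No result judged by its sign reversed. Genes named for interactions nearest to 0 or for the largest falls were judged by the size of the shift instead. Among them, Mx2 went from a slightly positive to a negative interaction with values raised to the bound. Centring each array on its median changed no value. Of the counts of interaction calls (1 probe), 16 were called with a pseudocount of 4, 8 with values raised to the bound, 11 with an intensity trend and 0 with the measured probes alone in the fit; without single arrays the count ran from 0 to 142, of which at most 9 were measured probes. The mean response was called higher in 254 to 548 probes and lower in 99 to 353 without single arrays, the former lowest without L929 untreated replicate 1, and lower in 87 with values raised to the bound. The 45 weakened genes became 29 with a pseudocount of 64 (27 of them the same genes), 23 when induced genes were chosen in L929IRF8 alone, 19 with untreated levels measured in both lines, 25 at a 2-fold limit and 29 (without L929 IFNβ replicate 1) to 57 (without L929IRF8 IFNβ replicate 1) on leaving out single arrays. The 11 strengthened genes became 4 with a pseudocount of 64, 4 with values raised to the bound (3 of them the same genes), 7 chosen in L929 alone, 3 with measured untreated levels, 2 at a 2-fold limit and 5 to 14 without single arrays. The 136 kept genes became 75 at a mean response of at least 4-fold and 79 with measured untreated levels. The median interaction of -0.22 was -0.27 with values raised to the bound, -0.19 with the measured probes alone, -0.30 chosen in L929 alone, -0.14 chosen in L929IRF8 alone, -0.28 at 4-fold, -0.17 with measured untreated levels and -0.369 to -0.091 without single arrays, with 59.7% to 82.4% of genes negative. Requiring both IFNβ groups above the bound, an alternative chosen after seeing the data, left 44 weakened genes. Bnip5 (adjusted p = 0.0365) and Trim21 (0.0378) were called by limma without L929IRF8 untreated replicate 2, and a probe of Gbp2 other than its brightest was called without either L929 IFNβ replicate. Of 675 values of 45 named genes, 644 counted as unchanged. For most genes this means the same sign and side of the threshold. For those named for interactions nearest to 0 or for the largest falls, it means a shift no larger than the SD between the replicate numbers.

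With replicate number as a block, 0 interaction probes were called by limma and 304 fell in the mean response. Deviations of same-numbered arrays correlated at 0.426 to 0.508 in each pair of groups, but the labels do not say what a number shares and there are only 2, so the block is not the pairing of a known design. Signals within a few units of the bound limit every value of genes silent before treatment.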
